A study of Homo sapiens with 12 samples.

Results

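Among 26336 genes of the count table, 85 had no count in any of the 3 vehicle libraries labelled JeKo-1 and 8 or more counts in each of the 3 chidamide libraries of that label. The genes were thus selected on their JeKo-1 counts, and the change under that label is given as a description without a test. The Granta-519 libraries took no part in the choice. The genes left out by name are 28 rows whose symbols a spreadsheet had turned into dates, and none of them met the rule.

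JeKo-1 and Granta-519 are established B-cell lines derived from mantle cell lymphoma, both grown in RPMI1640 with fetal serum. Each line received 4 µM chidamide or vehicle for 12 h, which gives 4 groups of 3 libraries of polyadenylated RNA. Library totals ran from 12873642 to 16592694 counts. Each line is a single established culture, and the labels do not state whether the 3 libraries of a group were separate cultures. A p-value here reflects no more than the variation among those libraries, which may be technical. In bulk RNA, a few cells with much of a transcript and many cells with little of it cannot be told apart.

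Chidamide is a benzamide that inhibits class I histone deacetylases, enzymes that remove acetyl groups from histones and from other proteins. Acetylated histones mark open chromatin. Inhibitors of these enzymes are known for raising transcripts of genes that a cell type normally keeps silent, many of them restricted to nerve, epithelium, germ line or other blood lineages.

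The libraries labelled JeKo-1 carried B-cell transcripts. MS4A1, which encodes CD20, was at 522, 471 and 504 CPM (counts scaled to library size, with trimmed mean of M-values factors) in vehicle and at 794, 773 and 778 CPM after chidamide. CD79A, a chain of the B-cell receptor complex, was at 706, 822 and 738 CPM and then at 488, 516 and 506 CPM. The mantle cell markers went against the label. SOX11 was at 0 in all 6 libraries, and CCND1 was between 0.0828 and 0.150 CPM in vehicle, whereas the pair summed to 2217 to 2317 CPM in Granta-519 vehicle. The name JeKo-1 below therefore stands for the label.

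Other cell types' markers were low but not all still under that label. Of 9 myeloid markers 5 had a count in vehicle and 7 after chidamide, and their sum went from 2.40 to 4.10 CPM up to 40.7 to 42.5 CPM. ITGAM and CSF1R made up most of that sum, while MPO and ELANE stayed at 0 and S100A8 reached at most 0.0711 CPM. Of 9 T-cell and natural killer markers 6 had a count after chidamide, summing to 6.12 to 8.50 CPM against 2.73 to 4.72 CPM in vehicle, with CD2, CD8A and GNLY at 0. Of 11 epithelial and stromal markers 10 had a count after chidamide, with a sum of 37.1 to 41.0 CPM against 26.2 to 30.3 CPM in vehicle, most of it from COL1A1 and with COL3A1 at 0. Of 6 erythroid and megakaryocytic markers 2 had a count after chidamide, at most 0.318 CPM in sum. The part of these markers in the results below was not tested.

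The 85 genes were a small slice of a wider silent set. In all, 10122 genes had 0 counts in each JeKo-1 vehicle library, and 2817 of them had at least 1 count in some JeKo-1 chidamide library. The reverse pattern, 8 or more counts in each vehicle library and 0 in each chidamide library, was met by 0 genes under the JeKo-1 label and by 0 in Granta-519. The same rule read in the Granta-519 columns was met by 25 genes, 0.0949% of all rows, against 0.323% for JeKo-1.

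Levels after chidamide were low. The 85 genes held 1821, 1539 and 1626 counts in the 3 JeKo-1 chidamide libraries, or 0.0110%, 0.0111% and 0.0106% of each library. Mean levels ran from 0.540 to 5.60 CPM, with a median of 1.04 CPM. Against the limit that 0 counts allow (3 counts over the 3 vehicle libraries, 0.0749 CPM), the levels were at least 7.22-fold to at least 74.8-fold higher, with a median bound of 13.9-fold. These bounds cover counting error in the vehicle zeros only and take the chidamide level as observed.

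The 15 genes with the most counts are known from several tissues, among them skin, nerve, germ line and leukocytes of other lineages. SPRR2A, a small proline-rich protein of the cornified envelope of skin, held 110, 78 and 75 counts in the 3 chidamide libraries (5.60 ± 0.864 CPM, SD, n = 3). LAMA4, a laminin chain of basement membranes, held 70, 70 and 57 counts (4.25 ± 0.682 CPM). SCN3A, a voltage-gated sodium channel of developing neurons, held 55, 61 and 53 counts (3.65 ± 0.596 CPM).

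MAP2, a microtubule-associated protein of dendrites, held 57, 44 and 64 counts. SPOCD1, a germline protein that takes part in piRNA-directed DNA methylation, held 57, 57 and 45 counts. The next 10 genes lay between 1.61 and 2.22 CPM. They were the myeloid receptor gene SIRPB1 (34, 34 and 35 counts), the exchange factor gene MCF2L2, the growth-cone gene DPYSL3, the leukocyte receptor gene LILRA1 (36, 30 and 27 counts), the MOB-family gene MOB3B, ITGBL1, the pseudogene CEACAM22P, the relaxin receptor gene RXFP1 (30, 25 and 25 counts), the macrophage-type receptor gene ADGRE1 and the plasminogen activator inhibitor gene SERPINB2.

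Replicates were close for most genes: the highest of the 3 chidamide libraries exceeded the lowest by a median factor of 1.47 in CPM, and by more than 2 in 12 of 85 genes. IL15, a cytokine for natural killer and T cells, had 37, 13 and 11 counts, and NAV3, a neuron navigator, had 28, 9 and 25. In IL15 replicate 1 and in NAV3 replicate 2 lay away from the other two.

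**Figure D1:**
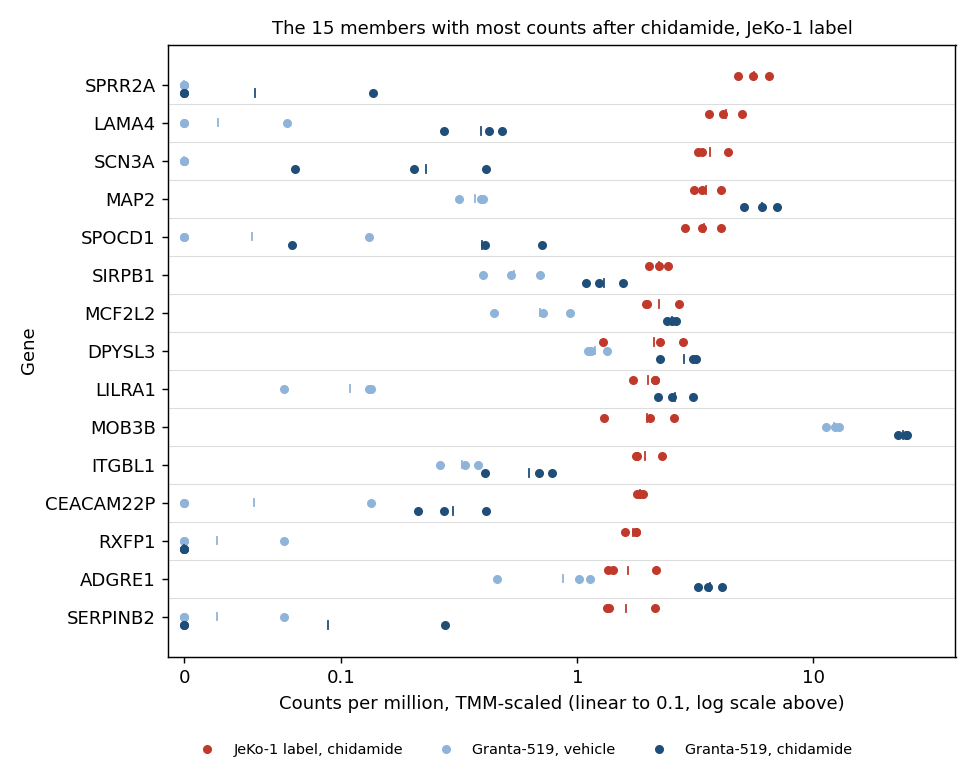
CPM (TMM-scaled counts, linear to 0.1 and log above) of the 15 genes with most counts after chidamide under the JeKo-1 label; each point is 1 library and each tick the mean of 3. JeKo-1 vehicle libraries, all at 0, are not drawn. SPRR2A, LAMA4 and SCN3A are high in JeKo-1 chidamide and near 0 in Granta-519, whereas MOB3B is higher in Granta-519 with and without the drug.

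Per annotated exon length, which allows levels of different genes to be set side by side, SPRR2A kept its place, the highest at 7.90 CPM per kilobase, while LAMA4 (0.542), SCN3A (0.396) and MAP2 (0.344) moved down. The collagen-binding leukocyte protein gene LAIR2 (1.43), the lens crystallin gene CRYBA4 (1.40) and the noncoding RNA LINC00462 (1.23) followed, although they had few counts. The median over the 82 genes with an annotated length was 0.234 CPM per kilobase. The lowest was TRHDE, an ectoenzyme that degrades thyrotropin-releasing hormone, at 0.0521 CPM per kilobase.

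The minimum of 8 counts cut through a continuous range. SNCAIP (8, 9 and 8 counts), TRHDE (8, 8 and 10) and CHRNA1 (8, 12 and 9) lay just inside it. NLRP13 (27, 15 and 7 counts), CXCR1 (12, 7 and 19) and CCDC144NL (11, 14 and 7) lay just outside, with 0 in each vehicle library. In all, 9 genes had 8 as their smallest chidamide count and 16 others had 7.

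The pattern was also read in libraries that took no part in a choice. When the rule was applied to replicates 2 and 3 of both JeKo-1 groups, 157 genes were chosen, and in the left-out replicate 1 the vehicle library was at 0 for 97 and the chidamide library at 8 or more for 136 of them. With replicate 2 left out, 141 genes were chosen, of which 111 were at 0 in vehicle and 108 at 8 or more after chidamide. With replicate 3 left out, 145 were chosen, of which 105 were at 0 and 117 at 8 or more. Both conditions held for the same 85 genes each time, or 54.1%, 60.3% and 58.6% of the genes chosen, and the others failed at least 1 of them. The chidamide count exceeded the vehicle count in 156 of 157, 139 of 141 and 144 of 145 genes. No share over all genes was set beside these counts. The highest left-out vehicle count was 7.

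Some rows may share reads with another gene, since the strand setting of the counting is not given in the sources used here. SPRR2A belongs to a family of near-identical copies, of which SPRR2E had 76, 72 and 65 counts in JeKo-1 chidamide libraries and 5, 4 and 3 in vehicle. SPRR2E did not meet the rule, and the split of reads between the copies is uncertain. PCDH11X, a protocadherin, has a near-identical copy on another chromosome, PCDH11Y, which also met the rule, and both rows are uncertain. ITGBL1 and FGF14 share 4354 bases of exon on opposite strands, so these 2 members may share part of their reads. MCF2L2 shares 1045 bases with B3GNT5, which had 29, 25 and 18 counts in the same chidamide libraries and 1, 2 and 0 in vehicle. In all, 10 of 82 annotated members had an exon overlapping another gene of the table.

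Several members were near neighbours in the order of protein-coding genes. ITGBL1 and FGF14 were adjacent, and 1 gene lay between COL16A1 and SPOCD1, between LAIR2 and LILRA1, and between CD36 and HGF. KLRF2 and CLEC9A, lectin receptor genes of the natural killer gene complex, had 3 genes between them, and NAV3 and PTPRQ had 4. The 74 members that could be placed gave these 6 pairs.

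RefSeq promoter windows of GRCh38.p14, which run from 250 bases before to 50 bases after the annotated start, were matched for 59 of 85 members, with the window listed first where a gene has several starts. The 100 bases before the start are shown for 4 of the genes with most counts (SPRR2A, LAMA4, MAP2, SPOCD1) and for MRO and CHRNA1, which stood out in Granta-519 below. Each is 5′ to 3′ on the strand of the gene. Capitals mark a match, on either strand, to 1 of 5 motifs: the TATA box as TATAAA, the GC box as GGGCGG, the site of AP-1 factors as TGANTCA, the E-box as CACGTG and the CCAAT box under its own letters.
SPRR2A, chr1:153057513-153057612, minus strand: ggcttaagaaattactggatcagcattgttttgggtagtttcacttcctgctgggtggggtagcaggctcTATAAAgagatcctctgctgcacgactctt
LAMA4, chr6:112254568-112254667, minus strand: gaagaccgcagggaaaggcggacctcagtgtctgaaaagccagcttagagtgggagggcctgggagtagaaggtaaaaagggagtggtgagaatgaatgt
MAP2, chr2:209661396-209661495, plus strand: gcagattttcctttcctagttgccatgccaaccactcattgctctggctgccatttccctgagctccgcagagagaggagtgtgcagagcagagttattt
SPOCD1, chr1:31816023-31816122, minus strand: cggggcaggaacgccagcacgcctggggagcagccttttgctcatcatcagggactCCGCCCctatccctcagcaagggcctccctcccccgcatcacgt
MRO, chr18:50825381-50825480, minus strand: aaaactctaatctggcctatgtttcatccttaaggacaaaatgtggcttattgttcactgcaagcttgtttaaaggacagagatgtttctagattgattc
CHRNA1, chr2:174764473-174764572, minus strand: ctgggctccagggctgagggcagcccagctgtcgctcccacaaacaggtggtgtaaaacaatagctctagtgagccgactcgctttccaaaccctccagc

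Of these 6 stretches, that of SPRR2A holds a TATAAA 30 bases before the start and that of SPOCD1 a GC box, and the other 4 hold none of the motifs. Over the full windows, TATAAA was found in 12 of 59 members (20.3%) against 12.0% of 27305 genes with a window, and CCAAT in 11 (18.6%) against 35.7%. GGGCGG was found in 24 members (40.7%, against 44.6% of all), TGANTCA in 5 (8.47%, against 7.76%) and CACGTG in 4 (6.78%, against 7.43%). The members with TATAAA included SPRR2A, the metalloproteinase gene MMP7, SERPINB2, CD36, FLT1 and ELF3. Windows over 50% GC with an observed-to-expected CpG ratio above 0.6 made up 37.3% of members and 46.8% of all genes. These shares are descriptions of letters in the windows, and they were not tested.

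The second question was how the same genes stood in Granta-519. Many were not silent there before the drug: 70 of 85 had a count in the 3 vehicle libraries together, and 53 had more than 3. A count in each vehicle library was found for 50 members, and 8 or more in each for 29. The vehicle group was at 0 for 15 members. Over the full table, each vehicle library held a count for 17304 to 17572 of 26364 rows. In 22 genes all 3 Granta-519 vehicle libraries lay above all 3 JeKo-1 chidamide libraries in CPM, as in 28.2% of all genes. With more than 3 counts in untreated Granta-519 for 53 of them, the list as a whole is specific to the drug only within the JeKo-1 label. The median of the mean levels was 0.197 CPM in vehicle and 1.31 CPM after chidamide, with highest values of 39.6 CPM (ZNF618) and 140.0 CPM (CD28).

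After chidamide all members that were called in Granta-519 rose. Of 85 members 77 passed the filter on low counts, and 65 of those rose (84.4%) while 0 fell (quasi-likelihood test of edgeR, with p adjusted by Benjamini-Hochberg over all tested genes and a threshold of 0.05; 0 fell also at an unadjusted p under 0.05 and by DESeq2). Among all tested genes 39.5% rose and 31.3% fell. Among the 1200 other tested genes with 0 counts in each JeKo-1 vehicle library, 68.8% rose and 7.92% fell. Such genes can pass the filter only through the drug or through Granta-519, so shares of tested genes are read with the following ones.

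Markers of other cell types moved in the same Granta-519 libraries. The 9 myeloid markers summed to 26.3 to 26.5 CPM in vehicle and 96.0 to 104 CPM after chidamide, with 8 and 6 of them above 0, most of it from ITGAM and CSF1R, with MPO and ELANE at 0 after chidamide. The 9 T-cell and natural killer markers went from 0.799 to 1.20 CPM up to 3.73 to 4.93 CPM, with 3 and 7 above 0 and CD3D and CD3G at 0 in all 6 libraries. The 11 epithelial and stromal markers went from 68.7 to 72.1 CPM up to 90.5 to 97.0 CPM, with 7 and 8 above 0, and the 6 erythroid and megakaryocytic markers from at most 0.379 CPM to at most 1.34 CPM. Their part in the rises was not tested.

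A gene can pass the filter because it is high after chidamide, so 3 readings that avoid this were made. Without a filter all 85 members were tested, and 64 rose (75.3%) and 0 fell, against 26.0% and 26.1% of all genes with a count and 22.6% and 2.14% of other genes with 0 counts in each JeKo-1 vehicle library. In 67 of 85 members (78.8%) all 3 chidamide libraries lay above all 3 vehicle libraries, against 28.3% of all genes, and in 0 members the reverse held, against 18.9%. Among other genes with 0 counts in each JeKo-1 vehicle library these shares were 16.6% and 1.24%. The shares for all and for other genes include rows without a count in Granta-519, which cannot separate. The members were chosen for counts under the JeKo-1 label, so part of this contrast may lie in how well genes were counted. In 25 members each Granta-519 vehicle library already reached the minimum of the filter (0.689 CPM). Of these 23 rose and 0 fell, and SYNPO2L and ZNF618 did not pass. Of all 12961 genes at that minimum 35.7% rose and 36.3% fell, and of the 727 other genes at it with 0 counts in each JeKo-1 vehicle library 58.3% rose and 13.1% fell. The differences between these shares were not tested.

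**Figure D2:**
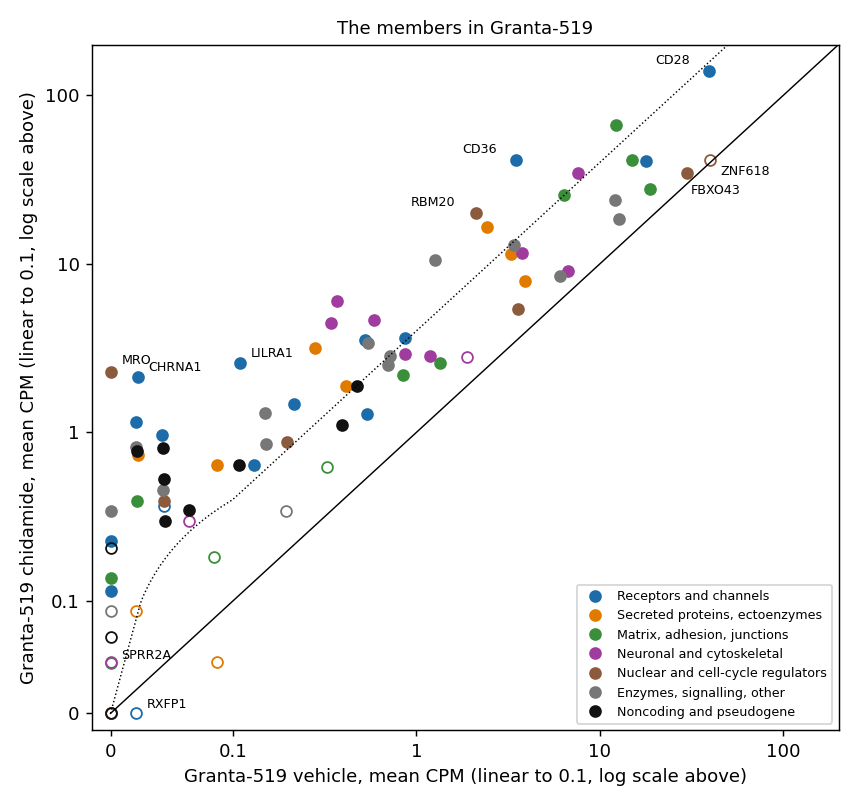
Mean CPM of the members in Granta-519 vehicle (horizontal) and chidamide (vertical) libraries, 3 each, linear to 0.1 and log above; filled points passed the test as higher, open points did not pass or were not tested, the solid line is no change and the dotted line a 4-fold rise. The plot leaves out 2 members; filled points lie above the solid line, ZNF618 lies close to it at 39.6 CPM in vehicle, and CD28 is highest at 140.0 CPM after chidamide.

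The rises were often large. The median log2 change of the 77 tested members was 2.27 against 0.0841 for all tested genes, or 2.01 when members at 0 in vehicle were set at their bound. In all, 57 rose at least 2-fold and 42 at least 4-fold on the fitted scale. By starting level, 47 of the 65 rose from more than 3 counts over the vehicle group, 13 from 1 to 3 counts and 5 from 0. The last 18 are all among the 42, but their fitted size depends on the smoothing of small counts. Bounds of some lie under 4-fold, such as 1.77-fold for PTPRQ and 2.12-fold for PCDH11X. Count ratios or bounds are therefore given for the 18 by role below. Their fitted sizes appear only to show the weight of single libraries.

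Single libraries weighed on the fitted size of several members with few counts. TMEM98 had 22, 7 and 7 chidamide counts, and its log2 change of 4.79 was 4.05 without chidamide replicate 1. Without that library FAM71F1 went from 5.38 to 4.68 and SCN3A from 4.81 to 4.13, and SPOCD1 went from 2.95 to 2.27 without chidamide replicate 2.

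Without chidamide replicate 3 MMP7 went from 2.77 to 2.18 and PCDH11X from 4.11 to 3.21. Where 1 vehicle library held all vehicle counts, leaving it out raised the fitted change. Without vehicle replicate 1 it was 6.53 for GDNF-AS1 (4.71 with it), 5.54 for LAMA4 (3.73), 5.97 for LINC00462 (3.37), 6.25 for MMP7 (2.77) and 5.54 for SPOCD1 (2.95). Without vehicle replicate 2 it was 6.83 for CD200R1L (4.23), 7.08 for LAIR2 (5.26) and 6.61 for TMEM98 (4.79). Without vehicle replicate 3 it was 5.17 for CEACAM22P (2.57), 7.97 for CHRNA1 (6.15) and 6.45 for HGF (4.62). FLJ42969 went from 2.27 to 3.09 without vehicle replicate 2, and SATB1-AS1 from 1.48 to 2.25 without vehicle replicate 3.

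The 1 gene that met the rule in both lines was MRO, maestro, a nucleolar protein gene first known from testis. It is 1.18% of the JeKo-1 list and 4.00% of the Granta-519 list of 25. MRO had 23, 12 and 16 counts in JeKo-1 chidamide libraries and 36, 33 and 31 in Granta-519 chidamide libraries, with 0 in all 6 vehicle libraries. Its rise in Granta-519 was at least 35.4-fold (adjusted p = 2.52e-12). This bound and those below take the chidamide counts as observed and allow for counting error in vehicle only.

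Counts by role, here and below, stand beside a rise in 39.5% of all tested genes. Among the other tested genes with 0 counts in each JeKo-1 vehicle library the share was 68.8%. Differences between roles, or from these shares, were not tested. Among 16 receptor and channel genes, 15 were tested and 14 rose in Granta-519. CD36, a scavenger receptor for lipids, stood at 70, 50 and 42 counts in vehicle and at 568, 635 and 598 after chidamide, a log2 change of 3.56 ± 0.13 (SE; adjusted p = 3.54e-30). CD28, the costimulatory receptor of T cells, went from 613, 637 and 569 to 2033, 1961 and 2102 counts (1.83 ± 0.06; adjusted p = 4.22e-31), and FLT1, a receptor for vascular endothelial growth factor, from 278, 281 and 263 to 560, 568 and 653. The groups of these 3 genes did not overlap, and each gene held at most 28 counts in any JeKo-1 chidamide library.

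LILRA1 rose from 2, 1 and 2 to 45, 31 and 37 counts (4.48 ± 0.49; adjusted p = 1.05e-11). CHRNA1, the muscle acetylcholine receptor subunit gene, rose from 1 count over the vehicle group to 93, a ratio of 98.7 with an exact 95% counting interval of 17.3 to 3938. LAIR2 rose from 1 to 50 counts, a ratio of 53.0 (9.09 to 2136), and CD200R1L, a relative of the CD200 receptor, from 2 to 42, a ratio of 22.3 (5.79 to 190). SCN3A, among the highest genes of the JeKo-1 list, reached 10 counts over the 3 Granta-519 chidamide libraries from 0, a rise of at least 3.54-fold. PTPRQ, a phosphatase of hair cells, had 5 counts against 0 (at least 1.77-fold; adjusted p = 0.0345). That call was lost without a filter, with a replicate block and in 5 of the 6 fits that left out 1 Granta-519 library, with adjusted p of 0.0503 to 0.0818.

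ADGRE1 (2.06 ± 0.31), SIRPB1 (1.24 ± 0.40), the GABA receptor subunit gene GABBR2 (2.72 ± 0.49) and CLEC9A (2.23 ± 0.67) rose as well. RXFP1 was the tested receptor gene that did not rise. It had 30, 25 and 25 counts in JeKo-1 chidamide libraries, and in Granta-519 it had 1 count in 1 vehicle library and 0 in the other 5. KLRF2, a lectin receptor gene, was below the filter, with 2 counts in vehicle and 16 after chidamide.

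Of 11 genes for secreted proteins and ectoenzymes 9 were tested and 7 rose. F5, coagulation factor V, rose from 35, 40 and 37 to 233, 246 and 245 counts (2.77 ± 0.16; adjusted p = 3.33e-21). IL15 rose from 46, 54 and 51 to 170, 158 and 174 counts (1.82 ± 0.18), and UTS2B, a urotensin-related peptide gene, from 1, 7 and 5 to 42, 44 and 53. HGF, the ligand of MET, rose from 1 to 32 counts over the group, a ratio of 33.9 (5.67 to 1382). CD5L, a scavenger protein secreted by macrophages, rose by 2.17 ± 0.41, RNASE6, an antimicrobial ribonuclease, by 1.03 ± 0.18, and MMP7, matrilysin, from 4 to 28 counts over the group. SEPP1, the selenium carrier selenoprotein P, and CRISP3, a cysteine-rich secretory protein, stayed at 0 in all 6 Granta-519 libraries, against 17, 18 and 12 and 10, 12 and 17 counts in JeKo-1 chidamide libraries. SERPINB2 had 1 count in Granta-519 vehicle and 4 after chidamide, a ratio of 4.24 (0.420 to 209) that did not pass, and TRHDE had 4 and 2.

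**Figure D3:**
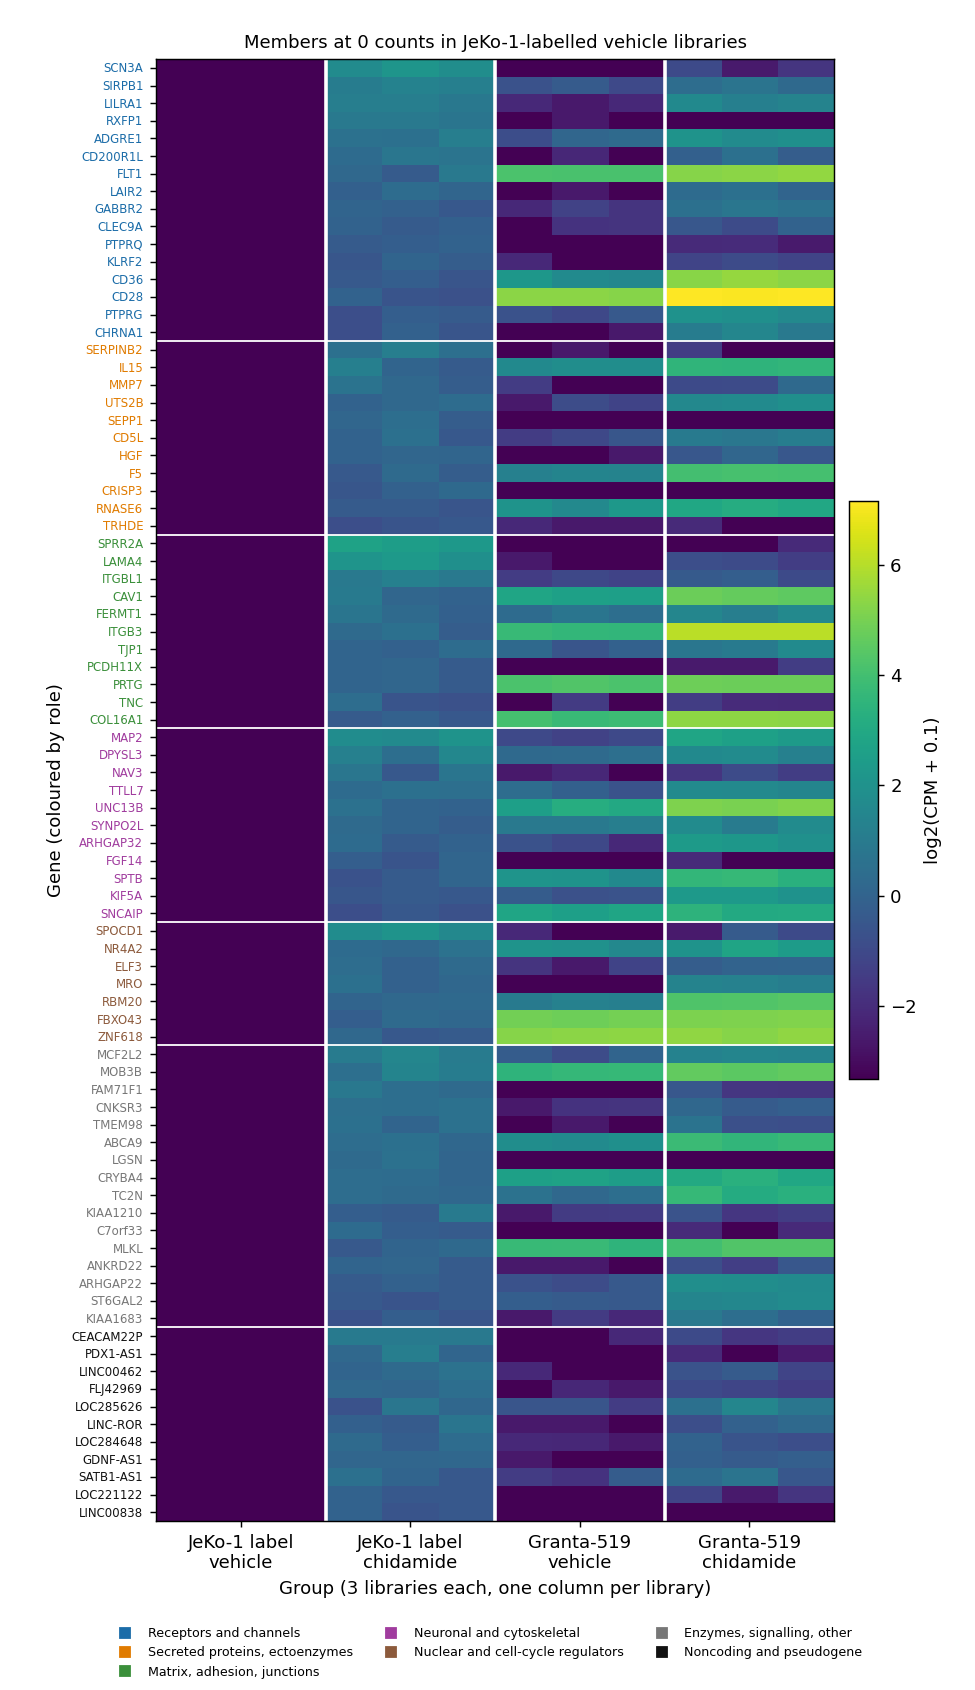
Level of 83 members (rows, coloured by role) in the 12 libraries (columns), as log2(CPM + 0.1); 2 members are left out. The JeKo-1 vehicle block is at 0 by the rule, the JeKo-1 chidamide block is low and even, and the Granta-519 blocks range from 0 (LGSN, CRISP3, SEPP1, LINC00838) to 140.0 CPM (CD28).

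Of 12 matrix, adhesion and junction genes 11 were tested and 8 rose. ITGB3, the beta chain of the platelet integrin, rose from 202, 192 and 175 to 972, 947 and 979 counts (2.43 ± 0.09; adjusted p = 3.41e-30). CAV1, the coat protein of caveolae, rose from 108, 96 and 90 to 409, 362 and 349 (2.01 ± 0.13), and COL16A1, a fibril-associated collagen, from 255, 218 and 219 to 603, 593 and 592 (1.45 ± 0.09). PRTG, protogenin, rose by 0.58 ± 0.09 from 277, 311 and 276 counts. FERMT1, an integrin activator of epithelium, and TJP1, a tight junction scaffold, rose by 0.95 ± 0.30 and 1.37 ± 0.35. In each of these 6 genes every chidamide library was above every vehicle library.

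The most counted genes of this role in the JeKo-1 list were scarce in Granta-519. LAMA4 had 1 count over the vehicle group and 17 after chidamide, a ratio of 18.0 (2.83 to 754; adjusted p = 0.000727). SPRR2A, a cornified envelope gene that was placed in this role by hand and is not a matrix gene, had 0 and 2 counts. ITGBL1 had 4, 6 and 5 counts in vehicle and 10, 11 and 6 after chidamide, a log2 change of 0.92 ± 0.53 that did not pass (adjusted p = 0.115). PCDH11X had 6 counts against 0, at least 2.12-fold (adjusted p = 0.0230; 0.0555 to 0.137 in the 4 of its leave-one-out fits that lost the call). TNC, tenascin C, was below the filter with 4 and 8 counts. Of 99 tested genes of the wider family of collagens, matrix proteins and matrix proteases, set by symbol, 78 rose and 5 fell in Granta-519. Of 181 rows of that family 4 were members: COL16A1, LAMA4, MMP7 and TNC.

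Of 11 neuronal and cytoskeletal genes 9 were tested and 8 rose. MAP2 rose from 6, 5 and 6 to 102, 86 and 75 counts (4.01 ± 0.31; adjusted p = 5.66e-17). UNC13B, which primes synaptic vesicles, rose from 92, 144 and 118 to 505, 469 and 532 (2.17 ± 0.12), and KIF5A, a neuronal kinesin, from 11, 8 and 8 to 73, 70 and 59 (2.97 ± 0.31). ARHGAP32, a GTPase-activating protein of neurons, rose from 8, 6 and 2 to 75, 64 and 55 counts (3.65 ± 0.36). DPYSL3 rose by 1.24 ± 0.30, TTLL7, a tubulin-modifying enzyme, by 1.74 ± 0.32, and SPTB, the beta-spectrin of red cells, by 1.63 ± 0.17. SNCAIP, a partner of alpha-synuclein, went from 109, 95 and 106 to 160, 115 and 123 counts (0.44 ± 0.16; adjusted p = 0.0104), a small rise that was lost without chidamide replicate 1 (adjusted p = 0.130), without vehicle replicate 2 (0.0689) and without a filter (0.0625).

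SYNPO2L, an actin-associated gene of muscle, had 27, 28 and 32 counts in vehicle and 47, 28 and 48 after chidamide, and did not pass (adjusted p = 0.0558). Its groups overlapped through chidamide replicate 2. FGF14, a sodium channel modulator, and NAV3 were below the filter, with 0 and 2 counts and with 3 and 13 counts over the groups.

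Of 8 nuclear and cell-cycle regulators all were tested and 7 rose. RBM20, the splicing regulator of titin, rose from 28, 37 and 33 to 277, 278 and 317 counts (3.23 ± 0.16; adjusted p = 1.21e-24). NR4A2, an orphan nuclear receptor, rose from 62, 60 and 43 to 60, 97 and 77 (0.59 ± 0.21; adjusted p = 0.0110). The NR4A2 libraries did not overlap after scaling, and the call was lost without chidamide replicate 2 or vehicle replicate 3. ELF3, an epithelial ETS factor, rose from 3, 1 and 5 to 11, 13 and 14 counts. SPOCD1 had 2, 0 and 0 counts in vehicle and 1, 10 and 6 after chidamide, groups that overlap. Over the groups this was a ratio of 9.02 (2.14 to 80.5). The call (adjusted p = 0.00487) was lost without chidamide replicate 2 (adjusted p = 0.0693).

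The 2 members with the highest Granta-519 vehicle levels beside CD28 were nuclear genes that moved little. ZNF618, a zinc finger gene, had 576, 638 and 616 counts in vehicle and 619, 544 and 629 after chidamide, a log2 change of 0.05 ± 0.08 (adjusted p = 0.550). FBXO43, a meiotic inhibitor of the anaphase-promoting complex, had 463, 449 and 467 and then 490, 491 and 535 counts (0.22 ± 0.08; adjusted p = 0.0171), a call lost in the fit to Granta-519 libraries alone (adjusted p = 0.0561), without a filter (0.299), without chidamide replicate 3 (0.0538) and without vehicle replicate 2 (0.0980). Under the JeKo-1 label the same genes had 18, 9 and 11 and 13, 16 and 16 counts after chidamide.

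Of 16 genes for enzymes, signalling and other proteins all were tested and 13 rose. TC2N, a tandem C2-domain gene, rose from 22, 17 and 19 to 190, 123 and 148 counts (3.07 ± 0.22; adjusted p = 3.09e-18), ABCA9, an ABC transporter, from 53, 50 and 55 to 202, 167 and 193 (1.91 ± 0.16) and MOB3B from 173, 196 and 193 to 359, 322 and 368 (0.98 ± 0.11). MLKL, the executioner of necroptosis, rose by 0.53 ± 0.12 from 205, 213 and 169 counts, and CRYBA4 by 0.49 ± 0.16 from 94, 102 and 83. TMEM98, a transmembrane protein gene, rose from 1 to 36 counts over the group, a ratio of 38.2 (6.43 to 1550). FAM71F1 rose from 0 to 15 counts, at least 5.30-fold. The small GTPase regulators ARHGAP22 and MCF2L2 (2.62 ± 0.34 and 1.84 ± 0.34), the Ras-pathway scaffold CNKSR3 (2.42 ± 0.58), the sialyltransferase gene ST6GAL2 (1.98 ± 0.33), KIAA1683 (3.04 ± 0.56) and ANKRD22 (2 to 20 counts over the group, a ratio of 10.6, 2.58 to 93.6) completed the 13. The CRYBA4 call was lost without chidamide replicate 2.

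The 3 that did not pass were LGSN, a lens protein gene at 0 in all 6 Granta-519 libraries and at 19, 20 and 15 counts in JeKo-1 chidamide libraries, C7orf33 (0 and 4 counts) and KIAA1210 (9 and 15 counts). Among 253 tested genes of a signalling family set by symbol prefix (phosphodiesterases, phosphatases, kinases and regulators named ARHGAP, ARHGEF, DOCK and the like, which leaves out MCF2L2), 152 rose and 55 fell in Granta-519. The 4 members in that family, ARHGAP22, ARHGAP32, PTPRG and PTPRQ, all rose, PTPRG from 8, 6 and 10 to 57, 52 and 44 counts.

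Of 11 noncoding and pseudogene rows 9 were tested and 8 rose. The antisense RNA GDNF-AS1 rose from 1 to 34 counts over the group, a ratio of 36.1 (6.05 to 1466), while GDNF itself had 2 counts in each group. LINC-ROR, a long noncoding RNA known from reprogramming to pluripotency, rose from 2 to 35 counts, a ratio of 18.6 (4.77 to 159), and LINC00462 from 2 to 23 (12.2, 3.01 to 107). CEACAM22P rose from 2 to 13 counts (6.90, 1.56 to 62.9), a call lost without chidamide replicate 1, vehicle replicate 1 or vehicle replicate 2 (adjusted p of 0.0645 to 0.0748). SATB1-AS1 rose from 4, 3 and 11 to 17, 22 and 9 counts, groups that overlap, and the call was lost without chidamide replicate 2 (adjusted p = 0.0675) or vehicle replicate 2 (0.0580). FLJ42969 rose from 3 to 15 counts (5.30, 1.50 to 28.6), a call lost without chidamide replicate 1 or vehicle replicate 1. PDX1-AS1 had 3 counts against 0, and LINC00838 stayed at 0 in all 6 libraries.

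Across the table, LINC-named and antisense rows that were called rose more often than they fell. Among all tested genes 39.5% rose and 31.3% fell. Of 203 tested LINC-named RNAs 107 rose and 13 fell, and of 373 tested antisense and intronic RNAs 143 rose and 32 fell. The 3 LOC-named members, LOC285626, LOC284648 and LOC221122, had 22, 5 and 0 counts over the vehicle group and 82, 28 and 9 after chidamide. LOC285626 and LOC284648 rose, and LOC221122 was below the filter.

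**Figure D4:**
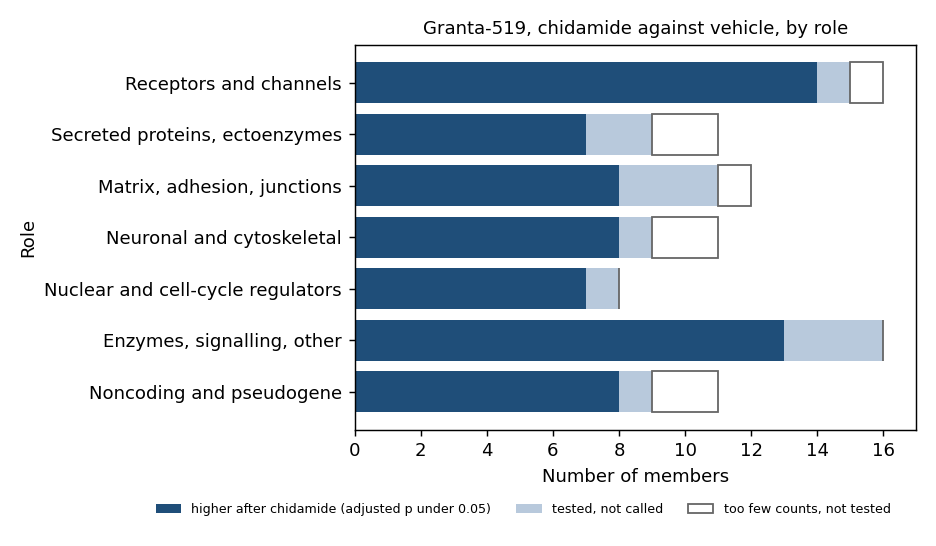
Number of members by role that rose in Granta-519 after chidamide (dark), were tested and not called (light) or had too few counts to be tested (white). Each role has 7 or more genes that rose and none that fell, with 8 of 11 tested matrix genes and 14 of 15 tested receptors and channels at the ends of the range of shares. Of all tested genes 39.5% rose, and of the other tested genes with 0 counts in each JeKo-1 vehicle library 68.8%.

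Compared across lines after the drug, 46 of 85 members had a higher mean level in Granta-519 than under the JeKo-1 label. The difference between the 2 lines' responses was not tested, because the JeKo-1 values chose the genes.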

How the data were processed

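The authors deposited a table of read counts per gene for 12 libraries, whole numbers without normalization; reads were aligned with STAR to hg19, per the submitters' processing notes. The counting tool, annotation, strand setting and STAR version are not given in the sources used here. The second deposited table, named as TPM, was not used, since its values could not be tied to gene lengths. Columns were mapped to samples by name, and groups come from the labels.

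Members are the rows with 0 counts in each JeKo-1 vehicle library and 8 or more in each JeKo-1 chidamide library. The members and the gene lists were chosen with earlier results of these data known, and the role of each member was assigned by hand from textbook knowledge. PCDH11Y and 1 other member are counted among the 85, but their values are not reported here. Levels are CPM, counts over library totals scaled by trimmed mean of M-values. edgeR 4.0.16 in R 4.3.3 fitted the quasi-likelihood model to all 12 libraries, with 1 coefficient per group, over the 15087 genes that passed its filter on low counts (0.689 CPM in at least 3 libraries), with Benjamini-Hochberg adjustment over the full set. Shares over all genes leave out 28 date-like rows, which brings the tested genes to 15066. Library totals were 12873642 to 16592694 counts. The test was checked on simulated counts, with the same spread for every gene and changes only in genes above a minimum level in Granta-519 vehicle. It recovered 97.5% of 200 changed genes, with 6 false calls. The check does not cover members with few counts. Ratios from 1 to 3 counts carry exact 95% intervals for counting error only. Bounds from 0 counts set the vehicle group at 3 counts and leave out the counting error of the chidamide group.

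Genes were named by rank: the 15 highest after chidamide under the JeKo-1 label, the 12 largest rises and any falls in Granta-519, the 6 highest in Granta-519 vehicle, members at 0 in Granta-519, up to 3 per symbol family and those nearest the minimum of 8. Other members were picked out after their values were seen, so that each role is covered. Alternatives were another scaling (upper quartile or library totals), no filter, Granta-519 libraries alone, a replicate block, DESeq2 1.42.0, each library left out in turn and other minimum counts.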

Additional observations from a re-analysis of the deposited data

How the results depend on the processing

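The number of members higher in Granta-519, 65 of 77, was 66 with upper-quartile scaling, 65 with library totals or DESeq2, and 64 of 85 without a filter. In Granta-519 libraries alone it was 48 of 51. Several called members had too few counts for that fit, among them SCN3A, LAMA4, SPOCD1, TMEM98, PTPRQ and HGF, so it does not bear on them. Leaving out 1 library gave 61 to 68 of 81, which brings in members not tested before and keeps 59 to 65 of the original calls. The value of 68 is without JeKo-1 vehicle replicate 2, a setting chosen after seeing the data. The number lower was 0 under each of these settings. With a replicate block it was 64, and PTPRQ was the call lost. No pairing by replicate number was seen: same-numbered Granta-519 libraries deviated together with correlations of 0.000125, -0.0118 and 0.0346. Differently numbered ones had -0.0337 to 0.0351. Such values cannot show whether libraries shared a culture or a day.

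The number of genes that meet the rule, 85, was 152 with 5 or more counts, 45 with 12 or more, 137 with at most 1 vehicle count in all, 71 with 0.6 CPM or more, and 97 to 136 when 1 JeKo-1 library was left out, 136 being without vehicle replicate 1. The share of higher calls among all called genes was 55.8%, 64.0% with upper-quartile scaling, 49.3% in Granta-519 libraries alone and 49.8% without a filter. Without a filter, genes shared with the main fit shifted by a median of -0.108 in log2 change. The median log2 change of all genes in the fit was 0.0491 without a filter and 0.0841 in the main fit. Directions turned in 3 cases, none past the threshold in either fit: ZNF618 at -0.015 in Granta-519 libraries alone and -0.054 without a filter, and SERPINB2, which ran from -1.83 (without chidamide replicate 1) to 3.55 as libraries were left out. SYNPO2L passed with upper-quartile scaling (adjusted p = 0.0255), without chidamide replicate 2 (0.0177) and without JeKo-1 vehicle replicate 2 (0.0405), and C7orf33 without chidamide replicate 2 (0.0371). The cause was not tested. Members with few counts limit these calls: 13 of the 65 rose from 1 to 3 vehicle counts and 5 from 0.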
